A study of Rattus norvegicus and Mus musculus with 12 samples.

Results

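The genes described here are the aggrecan network and the cartilage glycoproteins, 10 genes taken by symbol (Acan, Hapln1, Vcan, Matn1, Matn2, Matn3, Matn4, Comp, Prg4 and Cilp) out of 19687 genes in the rat table and 28603 in the mouse table. All 10 were found in both tables, and all 10 passed the filter on low counts in both species. RNA-seq was run on cultured chondrocytes, the cells of cartilage, taken from the articular cartilage of newborn animals 24 h old and used at passage 1. The RC group (rat control) and the RM group (rat model) came from SD (Sprague–Dawley) rats, and the MC group (mouse control) and the MM group (mouse model) from mice, with 3 libraries in each of the 4 groups. The chondrocytes of both model groups received 20 ng/ml IL-1β, an inflammatory cytokine of osteoarthritis, for 24 h, and those of both control groups did not. The strain given for the mice runs from C57BL/6 to C57BL/9 over the libraries, whereas the methods of the study name C57BL/6 alone. No sort of the cells is described, and in these bulk samples fewer cells of a type and less RNA per cell cannot be told apart. The samples of a group are stated to be independent, but how many animals gave each is not stated, so the P values measure only the spread between these samples.

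The label of the cells was checked on 13 chondrocyte genes outside the 10 described here. All 13 had an FPKM of at least 1 in both control groups and in the RM group. In the MM group, 10 of 13 did. FPKM is the number of reads on a gene divided by its length and by the total of the library, so it can be compared between genes. The summed FPKM of these 13 genes was 5003 to 5562 in the RC libraries, 2093 to 2143 in the RM libraries, 2036 to 2099 in the MC libraries and 208 to 215 in the MM libraries. Col2a1 was the largest part of this sum in each group. Of the 13 genes, 12 fell and 0 rose in rat, beside 16.8% and 18.3% of all genes tested. In mouse, 11 fell and 2 rose, beside 37.7% and 37.4%. Of 7 macrophage and leukocyte genes (6 in the rat table, where the symbol Itgam was not found), Cd68 alone reached a mean FPKM of 1. Its mean rose from 3.96 to 7.63 in rat and, in mouse, from 3.52 to 8.23. Ptprc, which marks all leukocytes, had a mean FPKM of 0.0559 or less in each group. Among the 3 tested in rat, 2 rose and 1 fell (Csf1r). Among the 3 tested in mouse, 2 rose and 0 fell (1 and 1 with library size alone). Over all genes tested, 18.3% rose and 16.8% fell in rat, and 37.4% rose and 37.7% fell in mouse. The summed FPKM of 7 fibroblast genes was 3687 to 4231 in the RC libraries, 2319 to 2440 in the RM libraries, 3221 to 3255 in the MC libraries and 1086 to 1099 in the MM libraries. The collagen gene Col1a1 was the largest part of this sum in each group. Of the fibroblast genes, 4 of 7 tested fell and 0 rose in rat, beside 16.8% and 18.3% of all genes tested. In mouse, 4 of 6 tested fell and 2 rose (5 and 0 with library size alone), beside 37.7% and 37.4% of all genes tested. The osteoblast list was lower in the model groups too. Its sum was 8.24 to 9.13 in the RC libraries, 2.07 to 2.98 in the RM libraries, 16.2 to 17.0 in the MC libraries and 1.69 to 1.83 in the MM libraries. In this list, 2 of 3 genes tested fell in rat and 5 of 5 in mouse, beside 16.8% and 37.7% of all genes tested. The tenocyte sum was 19.2 to 24.2 in the RC libraries and 22.5 to 23.1 in the RM libraries, whereas in mouse it was 46.0 to 49.2 in the MC libraries and 24.8 to 25.5 in the MM libraries. The skeletal muscle sum was 3.19 to 4.18 in the RC libraries, 2.67 to 3.07 in the RM libraries, 3.81 to 4.35 in the MC libraries and 0.390 to 0.816 in the MM libraries. The endothelial sum was at most 0.504 in any library, over the 4 of 5 listed genes found in each table. The part of these cell types in the results was not tested. The number of reads counted on genes was 16841580 to 25903459 per library. In mouse, the TMM factors, edgeR's correction for the composition of a library, were 1.10 in the MC group against 0.905 to 0.911 in the MM group. Over all mouse genes tested, the log2 fold changes had a median of −0.02 with these factors and of −0.295 with library size alone. In rat, the factors were 0.994 to 1.008.

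Aggrecan is the large proteoglycan of cartilage, whose sulphated side chains hold water and let the tissue resist compression. It is bound along threads of hyaluronan, and link protein (Hapln1) locks each aggrecan molecule in place, whereas versican (Vcan) is a relative of aggrecan that is found in looser and developing matrix. Matrilins and COMP are multi-subunit adaptor proteins that tie collagen fibrils to proteoglycans, lubricin (Prg4) is the lubricating glycoprotein of the joint surface, and CILP is a glycoprotein of the cartilage interterritorial matrix.

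With IL-1β, aggrecan, link protein, COMP, all 4 matrilins and CILP were lower in the model group of both species, and versican and lubricin were higher. In rat, 8 of the 10 genes fell and 2 rose by edgeR's quasi-likelihood test (adjusted P under 0.05), beside 16.8% of all 13303 genes tested that fell and 18.3% that rose. In mouse, 8 fell and 2 rose as well, beside 37.7% and 37.4% of 14774 genes. The median log2 fold change of the 10 genes was −1.35 in rat and −2.64 in mouse, beside 0.01 and −0.02 for all genes tested. By the criteria for DEGs of the study, whose fold change threshold of 0.85 is read here as a log2 value of 0.85 or more in size (beside an FPKM of 1 or more in a library and an unadjusted P under 0.05), 8 genes were downregulated and 2 upregulated in rat, beside 3.9% and 4.64% of all genes. In mouse the same reading gave 6 downregulated and 2 upregulated genes with TMM, beside 13% and 12.6%. Here Matn2 missed the log2 threshold and Cilp the FPKM threshold. The log2 fold change of Matn2 was −0.74 with TMM but −1.02, beyond the threshold, with library size alone. The FPKM of the 3 model libraries and the 3 control libraries did not overlap for any of the 10 genes in either species, beside 47.8% of all genes tested in rat and 80.3% in mouse.

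**Figure D1:**
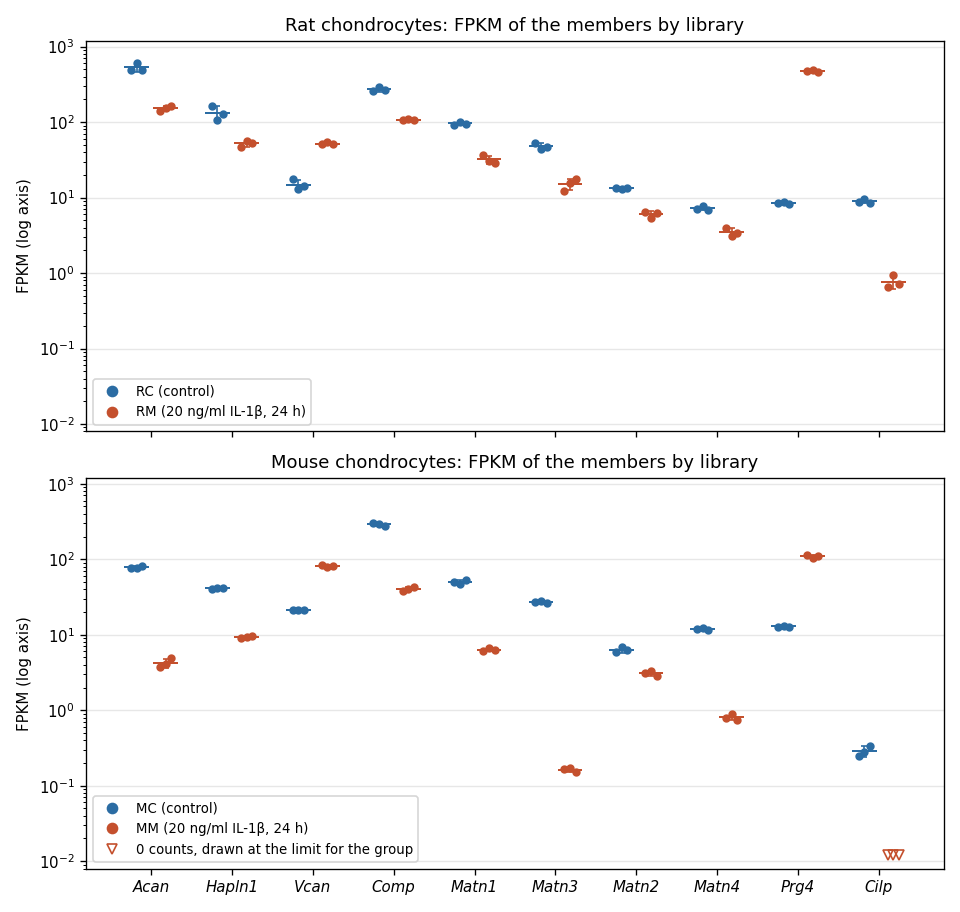
FPKM (log axis) of the 10 genes in each library of rat (upper panel) and mouse (lower panel), with a point per library, the group mean as a line and the SD as an error bar. Prg4 and Vcan lie higher in the model libraries (RM, MM) and the other 8 genes lower. Open triangles mark Cilp in the MM group, which had 0 counts and is drawn at an FPKM of 0.0124, which 3 counts summed over the MM libraries would give.

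The sequences in front of Acan, Hapln1 and Vcan are shown because these genes encode the 2 proteoglycans and the link protein of the hyaluronan aggregate, and because the first pair fell and the last rose. RefSeq promoter windows of the rat assembly GRCr8 were found for 7 of the 10 genes. Each sequence is the 250 bases before the annotated gene start, 5′ to 3′ on the strand of the gene. Capitals mark a match to the NF-κB consensus in Acan and to the SOX letters ACAAAG in Hapln1. Acan lies at chr1:142390701-142390950 (plus strand), Hapln1 at chr2:22366717-22366966 (plus strand) and Vcan at chr2:22595956-22596205 (minus strand).
Acan: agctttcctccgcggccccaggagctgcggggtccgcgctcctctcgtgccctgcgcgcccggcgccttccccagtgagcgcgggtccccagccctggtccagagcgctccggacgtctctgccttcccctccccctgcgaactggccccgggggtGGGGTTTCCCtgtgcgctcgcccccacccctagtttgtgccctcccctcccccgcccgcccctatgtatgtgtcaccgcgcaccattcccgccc
Hapln1: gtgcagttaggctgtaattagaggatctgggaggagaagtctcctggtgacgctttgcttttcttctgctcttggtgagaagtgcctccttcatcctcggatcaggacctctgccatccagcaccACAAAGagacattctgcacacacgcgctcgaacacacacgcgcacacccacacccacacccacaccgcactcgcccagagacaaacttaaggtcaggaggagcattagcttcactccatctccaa
Vcan: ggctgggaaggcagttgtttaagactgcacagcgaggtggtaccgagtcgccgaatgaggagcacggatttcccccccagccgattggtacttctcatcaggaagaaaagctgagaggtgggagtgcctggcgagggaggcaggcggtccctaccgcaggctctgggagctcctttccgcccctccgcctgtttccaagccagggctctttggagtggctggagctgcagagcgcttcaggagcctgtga
The GC content was 73.6% for Acan, 54% for Hapln1 and 61.6% for Vcan. Searched on both strands, the NF-κB consensus was present in 6.33% of all 33469 promoter windows of the same length and ACAAAG in 16.3%. The AP-1 letters TGANTCA (6.34% of windows) and the TATA letters TATAAA (12.9%) were in none of these 3 windows, and the Vcan window held none of the 4 motifs. A match of letters is a description of the window, and binding of a factor was not measured.

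Acan, the gene of the aggrecan core protein, fell in every comparison of model with control libraries. In rat (ENSRNOG00000028992), its FPKM was 487.9, 603.5 and 495.5 in the RC libraries and 142.0, 153.8 and 164.0 in the RM libraries. The means were 529 ± 64.6 (SD, n = 3) and 153 ± 11.0, a log2 fold change of −1.80 (standard error 0.092, 95% interval −2.01 to −1.60, edgeR adjusted P = 3.11e-07), or 3.49-fold lower. In the mouse, Acan (ENSMUSG00000030607, chr7:79053483-79115099 of GRCm38, plus strand) fell further. Its FPKM was 77.2, 76.3 and 81.4 in the MC libraries and 3.69, 4.11 and 4.86 in the MM libraries. The log2 fold change was −3.94 (standard error 0.045, 95% interval −4.03 to −3.85, edgeR adjusted P = 2.14e-62), or 15.4-fold lower. Aggrecan was thus the most abundant of the 10 transcripts in the RC group and the sixth in the MM group. On the log2 scale, the difference between the species (the mouse change minus the rat change) was −2.14 (standard error 0.128, 95% interval −2.41 to −1.87, edgeR adjusted P = 2.20e-10).

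Hapln1, the gene of link protein, also fell in both species, with a smaller difference between them than Acan showed. In rat (ENSRNOG00000032002), the FPKM was 162.5, 106.3 and 129.1 in the RC libraries and 47.0, 56.8 and 53.2 in the RM libraries. RC replicate 2 had the lowest Hapln1 and the highest Acan of the RC libraries, and Hapln1 had the widest spread of the 10 genes in the RC group (coefficient of variation 21.3%). The log2 fold change in rat was −1.36 (standard error 0.136, edgeR adjusted P = 3.58e-05). In the mouse (ENSMUSG00000021613, chr13:89539796-89611652, plus strand), FPKM values of 40.3, 41.8 and 41.3 stood against 9.05, 9.34 and 9.51. That is a log2 fold change of −1.87 (standard error 0.039, edgeR adjusted P = 1.08e-47). Set against the rat, the mouse change was lower by a log2 difference of −0.51 (95% interval −0.84 to −0.18, edgeR adjusted P = 0.00815).

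Vcan, the gene of versican, moved the opposite way from Acan and Hapln1. In rat (ENSRNOG00000029212), its FPKM was 17.3, 12.9 and 14.1 in the RC libraries and 50.6, 54.4 and 51.0 in the RM libraries. It rose 3.47-fold, a log2 fold change of 1.80 (standard error 0.103, 95% interval 1.57 to 2.02, edgeR adjusted P = 6.33e-07). In the mouse (ENSMUSG00000021614, chr13:89655312-89742509, minus strand), FPKM values of 21.0, 21.5 and 21.5 rose to 83.2, 79.7 and 80.6. The rise was 4.61-fold, a log2 fold change of 2.20 (standard error 0.028, edgeR adjusted P = 1.06e-59). The change in mouse exceeded that in rat by 0.41 on the log2 scale (edgeR adjusted P = 0.00343). This difference is lost when the mouse libraries are scaled by library size alone (0.11, adjusted P = 0.357), so the rise of versican is not shown to differ between the species under every scaling.

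The ratio of versican to aggrecan within a library does not depend on how libraries are scaled. In rat, it was 0.0356, 0.0214 and 0.0285 in the RC libraries and 0.356, 0.354 and 0.311 in the RM libraries, a 12.2-fold increase. Aggrecan therefore remained the more abundant transcript per length in each rat library. In mouse, the ratio was 0.273, 0.282 and 0.264 in the MC libraries and 22.5, 19.4 and 16.6 in the MM libraries, a 71.0-fold increase, and versican exceeded aggrecan in each MM library. The ratio of link protein to aggrecan behaved differently in rat, where it was 0.333, 0.176 and 0.261 in the RC libraries and 0.331, 0.369 and 0.324 in the RM libraries. These groups overlap, and no change in the ratio was shown (1.37-fold, exact permutation test, P = 0.3). In mouse, the ratio of link protein to aggrecan was 0.522, 0.548 and 0.507 in the MC libraries and 2.45, 2.27 and 1.96 in the MM libraries, 4.22-fold higher. An exact permutation test of 3 libraries against 3 cannot give a two-sided P under 0.1. That value was reached by the ratio of versican to aggrecan in both species and by the ratio of link protein to aggrecan in mouse (adjusted P = 0.127 over the 14 ratios and shares compared by exact permutation tests).

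**Figure D2:**
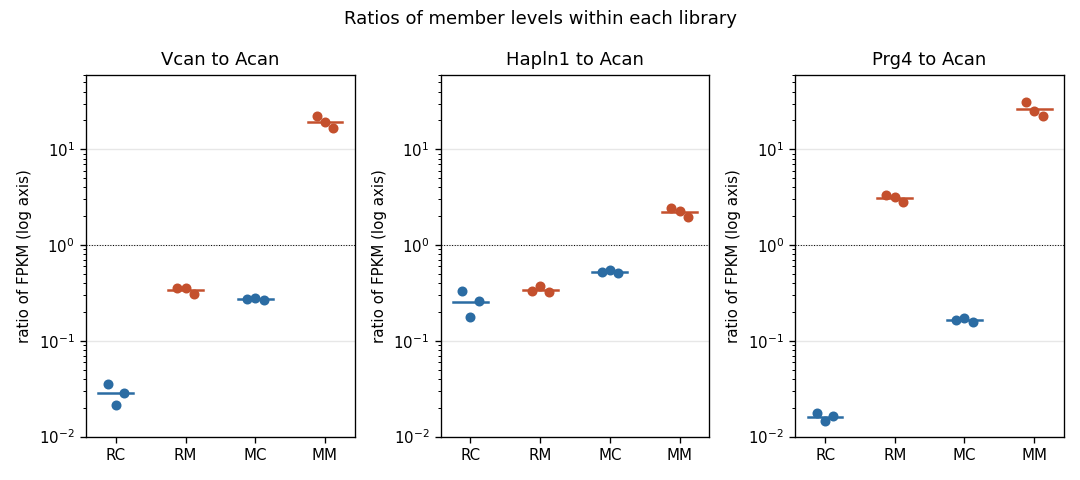
Ratios of FPKM within each library (log axis) for Vcan to Acan, Hapln1 to Acan and Prg4 to Acan, with a point per library and a line at the group mean, and a dotted line at equal levels. Vcan to Acan crosses equality in mouse alone (16.6 to 22.5 in the MM group), Prg4 to Acan crosses it in both species, and the RC and RM points of Hapln1 to Acan overlap.

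Each lectican gene, the family of aggrecan and versican, is the neighbour of a link protein gene in both genomes, with 0 protein-coding genes between them. Vcan and Hapln1 lie on opposite strands of mouse chromosome 13, with 43659 bases between them, and one rose while the other fell. Acan and Hapln3 lie tail to tail on mouse chromosome 7 with 2 bases between their annotated ends, and the library kit does not mark strand, so reads that run past either end cannot be told apart. Hapln3 did not move with its neighbour in rat. Its FPKM there was 3.33 ± 0.295 (SD, n = 3) in the RC group against 3.40 ± 0.572 in the RM group, with a log2 fold change of 0.01 (standard error 0.178, 95% interval −0.39 to 0.40, edgeR adjusted P = 0.978). In mouse, Hapln3 had an FPKM of 0.243 in the MC group against 0.198 in the MM group (44 and 40 counts), with an edgeR adjusted P of 0.999. The sign of its change turns with library size alone (−0.28). Hapln4, a link protein known from the brain, lies beside Ncan. It fell in rat from an FPKM of 2.57 ± 0.176 (SD, n = 3) to 1.99 ± 0.120 (log2 fold change −0.39, edgeR adjusted P = 0.0351) and rose in mouse from 0.676 ± 0.143 to 2.13 ± 0.159 (log2 fold change 1.92, edgeR adjusted P = 9.60e-17), and the difference between the species passed the test (2.31, edgeR adjusted P = 1.70e-08). The brain proteoglycan genes Bcan and Ncan and the link protein gene Hapln2 were near the limit of detection. In mouse, Bcan had 81 counts in the MC libraries together and 9 in the MM libraries (log2 fold change −2.98, edgeR adjusted P = 6.09e-08). Over the RC and RM groups, Bcan had 20 and 7 counts, Ncan 26 and 31, and Hapln2 2 and 2, too few to be tested. The mouse counts were 12 and 2 for Ncan and 5 and 1 for Hapln2. Of these 5 relatives outside the 10 genes, 1 fell and 0 rose among the 2 tested in rat, beside 16.8% and 18.3% of all genes tested. Among the 3 tested in mouse, 1 fell and 1 rose, beside 37.7% and 37.4%.

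Comp, the gene of cartilage oligomeric matrix protein, a pentamer that binds collagen fibrils, fell in both species. In rat (ENSRNOG00000048472), its FPKM was 255.9, 295.1 and 262.2 in the RC libraries and 105.6, 108.7 and 107.9 in the RM libraries, a log2 fold change of −1.35 (standard error 0.071, edgeR adjusted P = 3.84e-07). In mouse (ENSMUSG00000031849, chr8:70373558-70382066, plus strand), it was 298.1, 293.8 and 278.5 in the MC libraries and 37.9, 40.4 and 42.7 in the MM libraries, a log2 fold change of −2.57 (standard error 0.034, edgeR adjusted P = 5.72e-59). The ranges of the RC and MC libraries overlap, whereas the MM libraries lie below each RM library, although FPKM of the species rest on different annotations and were not tested against each other. For Comp the difference between the species was −1.22 (standard error 0.084, edgeR adjusted P = 1.38e-09).

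All 4 matrilins fell in both species, with log2 fold changes between −1.69 and −1.07 in rat and between −7.08 and −0.74 in mouse. All 4 encode adaptor proteins, of which matrilin 1 and matrilin 3 are typical of cartilage, whereas matrilin 2 and matrilin 4 are also made in other tissues. Matn1 in rat (ENSRNOG00000010932) had an FPKM of 91.4, 101.3 and 94.998 in the RC libraries and 36.6, 30.6 and 29.1 in the RM libraries (log2 fold change −1.60, edgeR adjusted P = 7.94e-07). In mouse (ENSMUSG00000040533, chr4:130944385-130955475, plus strand), Matn1 had 49.5, 47.4 and 53.6 in the MC libraries and 6.06, 6.62 and 6.20 in the MM libraries (log2 fold change −2.72, edgeR adjusted P = 1.35e-45). Its fall was larger in mouse, with a difference between the species of −1.12 (edgeR adjusted P = 3.38e-07).

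Matn3, mutated in some inherited dysplasias of the skeleton, showed the widest gap between the species. In rat (ENSRNOG00000056141), its FPKM was 53.4, 44.5 and 47.4 in the RC libraries and 12.3, 15.6 and 17.4 in the RM libraries, 3.23-fold lower (log2 fold change −1.69, standard error 0.123, edgeR adjusted P = 3.61e-06). In mouse (ENSMUSG00000020583, chr12:8947929-8972028, plus strand), FPKM values of 26.8, 27.9 and 26.7 stood against 0.165, 0.170 and 0.152. These rest on sums of 4243 counts for the MC group and 28 for the MM group, with 10, 10 and 8 counts in the MM libraries. The log2 fold change was −7.08 (standard error 0.118, edgeR adjusted P = 2.39e-53), or 136-fold lower, and it ran from −7.11 to −7.03 when any 1 library was left out. It ranked 26 among the falls of all 14774 mouse genes tested, whereas Matn3 ranked 189 in rat. The difference between the species was −5.39 (standard error 0.229, 95% interval −5.88 to −4.91, edgeR adjusted P = 2.48e-12).

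Matn4 differed between the species in the same direction. In rat (ENSRNOG00000014021), it had an FPKM of 6.97, 7.80 and 6.94 in the RC libraries and 3.94, 3.12 and 3.41 in the RM libraries (log2 fold change −1.07, edgeR adjusted P = 7.90e-05). In mouse (ENSMUSG00000016995, chr2:164389393-164405160, minus strand), it had 11.8, 12.3 and 11.7 in the MC libraries and 0.800, 0.899 and 0.741 in the MM libraries (log2 fold change −3.59, edgeR adjusted P = 1.63e-44). The difference was −2.51 (edgeR adjusted P = 1.47e-10). Matn2 was the exception, with the larger fall in rat. Its rat FPKM (ENSRNOG00000006060) was 13.5, 13.0 and 13.5 in the RC libraries and 6.44, 5.42 and 6.21 in the RM libraries (log2 fold change −1.16, edgeR adjusted P = 3.61e-06). In mouse (ENSMUSG00000022324, chr15:34306677-34436273, plus strand), it was 5.83, 6.83 and 6.21 in the MC libraries and 3.11, 3.35 and 2.80 in the MM libraries. The log2 fold change in mouse was −0.74 with TMM (95% interval −0.89 to −0.60, edgeR adjusted P = 3.11e-14) and −1.02 with library size alone. The difference between the species, 0.42 with TMM (edgeR adjusted P = 0.00615), was 0.12 with library size alone (adjusted P = 0.371). In the mouse annotation, 70 exonic bases of Matn2 overlap 9430069I07Rik and 149 of Matn4 overlap Rbpjl, both on the opposite strand, so a few of their reads could belong to either gene.

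As a share of the summed FPKM of the matrilins in a library, Matn1 held the largest part in each group. In rat, the share of Matn1 was 58.1% ± 2.77 (SD, n = 3) in the RC group against 56.5% ± 4.96 in the RM group (exact permutation test, P = 0.7). The share of Matn3 was 29.4% ± 2.81 and 26.8% ± 5.34 (exact permutation test, P = 0.6). The rat groups overlap for both, and the direction of each small difference turns when 1 RM library is left out. The smaller shares of Matn2 and Matn4 were higher in each RM library than in each RC library. Matn2 made up 7.80% to 8.29% in the RC libraries and 9.92% to 11.06% in the RM libraries, and Matn4 made up 4.22% to 4.68% and 5.70% to 6.64% (exact permutation test, P = 0.1 for each, the smallest possible; adjusted P = 0.127). In mouse, the share of Matn3 was 28.4% ± 1.17 in the MC group against 1.57% ± 0.0568 in the MM group, and that of Matn2 was 6.58% ± 0.558 and 29.8% ± 1.27. The share of Matn1 in mouse was 52.5% ± 2.21 in the MC group against 60.8% ± 1.60 in the MM group. The share of Matn4 in mouse was 12.5% ± 0.593 in the MC group against 7.84% ± 0.337 in the MM group. For none of the 4 shares did the mouse groups overlap (exact permutation test, P = 0.1, the smallest possible; adjusted P = 0.127).

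**Figure D3:**
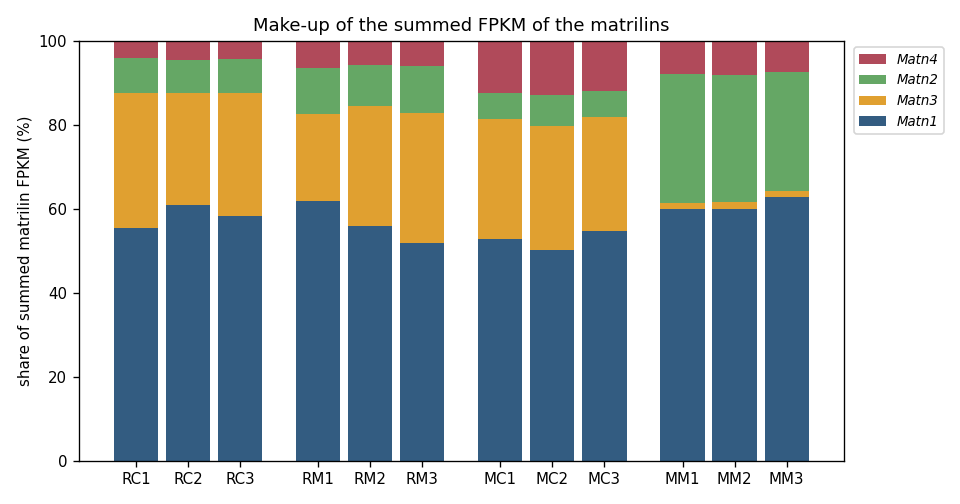
Stacked bars of the share (%) of Matn1, Matn2, Matn3 and Matn4 in the summed FPKM of the matrilins, with a bar per library. The RC and RM bars overlap in their Matn1 and Matn3 shares, while in the MM bars Matn3 shrinks to 1.57% on average and Matn2 takes 29.8%.

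Prg4, the gene of lubricin, had the largest rise of the 10 genes in both species. In rat (ENSRNOG00000002385), its FPKM was 8.53, 8.81 and 8.14 in the RC libraries and 473.2, 493.4 and 460.7 in the RM libraries. The means were 8.49 ± 0.335 (SD, n = 3) and 476 ± 16.5, a log2 fold change of 5.79 (standard error 0.077, 95% interval 5.62 to 5.96, edgeR adjusted P = 1.50e-11), or 55.4-fold higher. This ranked 21 among the rises of all 13303 rat genes tested. In mouse (ENSMUSG00000006014, chr1:150449412-150466165, minus strand), the rise was smaller. The FPKM was 12.8, 13.2 and 12.6 in the MC libraries and 114.3, 104.2 and 108.8 in the MM libraries, a log2 fold change of 3.36 (standard error 0.038, 95% interval 3.28 to 3.44, edgeR adjusted P = 1.56e-62), or 10.3-fold higher. Among the mouse rises it ranked 382. Mouse minus rat, the difference in the change was −2.43 (standard error 0.077, 95% interval −2.59 to −2.27, edgeR adjusted P = 7.65e-14). In the mouse annotation 204 exonic bases of Prg4 overlap Tpr on the opposite strand. The ratio of lubricin to aggrecan, added after the data were seen, increased 193-fold in rat (from 0.0146 to 0.0175 in the RC libraries to 2.81 to 3.33 in the RM libraries) and 158-fold in mouse (from 0.155 to 0.173 to 22.4 to 30.9).

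Lubricin is made by cells of the joint surface and the synovium, so 5 other genes of those cells were examined. Of Clic5, Tspan15, Erg, Creb5 and Gdf5, 1 fell (Erg) and 0 rose in rat, beside 16.8% and 18.3% of all genes tested. Their summed FPKM in rat was 10.2 to 12.4 in the RC group against 7.46 to 7.87 in the RM group. In mouse, where 37.4% of all genes rose, 4 rose and 1 fell (Erg), or 3 and 1 with library size alone, and the sum was 13.1 to 14.9 in the MC group against 24.7 to 26.6 in the MM group. Gdf5, a growth factor of the joint surface lineage, made up most of this rise, with a mean FPKM of 3.41 in the MC group against 17.5 in the MM group. The FPKM of Tspan15 overlapped between the groups (1.76 to 1.86 in the MC libraries and 1.82 to 2.07 in the MM libraries), and its log2 fold change of 0.38 became 0.10 with library size alone (adjusted P = 0.290). Clic5 stayed low, with a mean FPKM of 0.0527 in the MC libraries and 0.109 in the MM libraries, and Creb5 went from 0.762 to 1.21. The mouse sum thus moved with Prg4 mainly through Gdf5, the rat sum did not rise, and the part of these cells in the result was not tested.

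Cilp, the gene of cartilage intermediate layer protein, had the largest fall of the 10 genes in rat. In rat (ENSRNOG00000029911), its FPKM was 8.75, 9.55 and 8.59 in the RC libraries and 0.649, 0.935 and 0.718 in the RM libraries. The log2 fold change was −3.55 (standard error 0.132, 95% interval −3.84 to −3.26, edgeR adjusted P = 2.80e-08), or 11.7-fold lower, and it ranked 14 among the falls of all rat genes tested. In mouse (ENSMUSG00000042254, chr9:65265180-65280605, plus strand), Cilp was scarce from the start, with 18, 20 and 26 counts in the MC libraries and 0 in each MM library. Its FPKM was 0.247, 0.279 and 0.341 in the MC libraries. With the MM group set at the limit that a count of 0 allows, 3 counts over the group, Cilp was at least 19.3-fold lower in the MM group (edgeR adjusted P = 2.73e-10). This limit covers counting error only. The size of the mouse fall beyond it could not be measured at this depth, so the fitted difference between the species (−3.99, standard error 1.24, edgeR adjusted P = 0.011) depends on the small count that edgeR adds, and it turns to 2.13 with limma on log2(FPKM + 1).

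**Figure D4:**
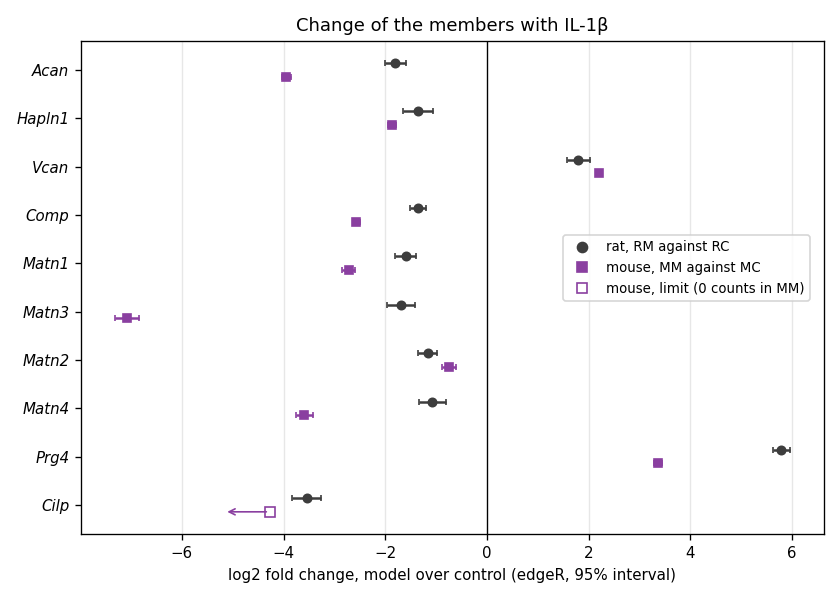
Log2 fold changes (model over control) of the 10 genes in rat (circles) and mouse (squares), with 95% intervals from edgeR. Mouse lies to the left of rat for Acan, Hapln1, Comp, Matn1, Matn3, Matn4 and Prg4, and to the right for Vcan (2.20 against 1.80) and Matn2 (−0.74 against −1.16). The open square with an arrow is the limit for Cilp in mouse, −4.27, since the MM group had 0 counts.

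The make-up of this set of transcripts was altered by IL-1β in both species. In the RC group, Acan made up 46.7% ± 3.12 (SD, n = 3) of the summed FPKM of the 10 genes, followed by Comp with 24.0%, Hapln1 with 11.8%, Matn1 with 8.49% and Matn3 with 4.31%. Vcan and Matn2 came next, with overlapping ranges, as did Cilp and Prg4 after them, and Matn4 was the lowest. In the RM group, Prg4 made up 53.0% ± 1.24, Acan 17.1% and Comp 11.96%. Hapln1 and Vcan followed with overlapping ranges, then Matn1, Matn3, Matn2, Matn4 and Cilp. In the MC group, the order was led by Comp with 53.7% ± 1.41, with Acan at 14.5%, followed by Matn1, Hapln1, Matn3, Vcan, Prg4, Matn4, Matn2 and Cilp. In the MM group, Prg4 made up 42.9% ± 1.23, Vcan 31.9% and Comp 15.9%, and Acan 1.66%, after Hapln1 and Matn1. Matn2, Matn4, Matn3 and Cilp were the lowest of the MM group. Apart from the overlaps named, the ranges of neighbours in these orders did not overlap. The summed FPKM was 1080 to 1203 in the RC libraries and 878 to 923 in the RM libraries, so the rise of Prg4 offset part of the summed fall in rat. In mouse it was 534 to 544 in the MC libraries and 249 to 258 in the MM libraries. FPKM are not scaled by TMM, which in mouse lowers each ratio of MM to MC by 0.279 on the log2 scale relative to the fitted changes.

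**Figure D5:**
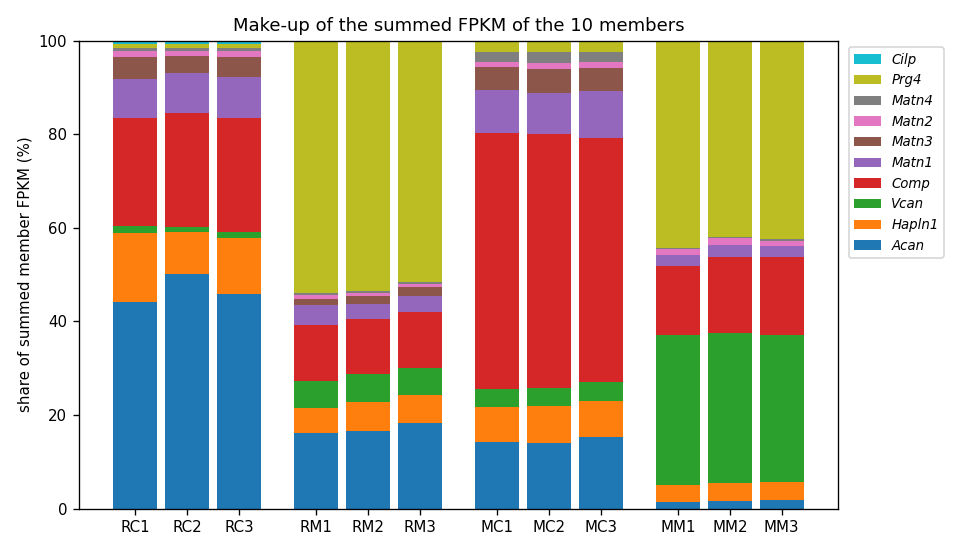
Stacked bars of the share (%) of each of the 10 genes in their summed FPKM, with a bar per library. Acan and Comp fill most of the RC bars and Comp most of the MC bars, whereas Prg4 takes 53.0% on average in the RM bars and 42.9% in the MM bars, where Vcan takes 31.9%.

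The difference between the species was tested over the 10912 genes that are shared by symbol and were tested in both. For 8 of the 10 genes, the change in mouse lay below that in rat (adjusted P under 0.05), beside 32.3% of all shared genes tested, and for Vcan and Matn2 it lay above, beside 31.4%. The 8 include Cilp, whose fitted difference rests on 0 counts in the MM group and changes sign with limma on log2(FPKM + 1). With library size alone, none of the 10 genes passed the test with the change in mouse above that in rat. Over all genes, the spread of replicates was larger in rat, with a biological coefficient of variation of 0.106 against 0.0318 in mouse. In the fits per species, the same fold change therefore has a larger standard error in rat. The test of the difference pooled the spread of each gene over all groups, so its standard errors and P values assume an equal spread in both species.

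Among 4005 genes whose mean FPKM reached 10 in a group of each species, those whose pair of log2 fold changes lay closest to that of Acan (−1.80 in rat and −3.94 in mouse) were Mfap2 (−1.63 and −3.80, Euclidean distance 0.224), Srpx (−1.56 and −4.05, distance 0.267) and Col2a1 (−1.60 and −3.57, distance 0.424). Mfap2 encodes a microfibril protein and Col2a1 the main fibrillar collagen of cartilage. No gene lay as close to Prg4 as these did to Acan. The change of Prg4 ranked 21 among the rises of all 13303 rat genes tested, where few genes lie, so the larger distances need not be particular to Prg4. The nearest were Tlr2 (5.04 in rat and 2.93 in mouse, distance 0.871), a receptor of bacterial lipoproteins, Angptl4 (4.98 and 4.32, distance 1.26) and the protease inhibitor gene Slpi (5.48 and 4.84, distance 1.51).

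Of 8 genes for the synthesis, binding and turnover of hyaluronan, the thread on which aggrecan is held, 4 rose and 1 fell in rat, and 5 rose and 2 fell in mouse (4 and 3 with library size alone). Over all genes tested, 18.3% rose and 16.8% fell in rat, and 37.4% rose and 37.7% fell in mouse. Cd44, the main hyaluronan receptor of the cell surface, rose in both, from a mean FPKM of 59.1 to 127 in rat (log2 fold change 1.09) and from 23.3 to 103 in mouse (log2 fold change 2.42). Has2, a hyaluronan synthase, rose in rat (log2 fold change 0.49, edgeR adjusted P = 0.00683) and fell in mouse (−0.33, edgeR adjusted P = 0.0355), and this difference passed the test (−0.81, edgeR adjusted P = 0.000732). Hyal1, a hyaluronidase, went the opposite way and fell by 0.40 on the log2 scale in rat but rose by 1.63 in mouse. Cemip2, a hyaluronidase of the cell surface, rose in rat (log2 fold change 1.35). In mouse its log2 fold change was 0.24 with TMM but −0.04 with library size alone.

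Of 7 genes for aggrecan-cleaving proteases and their inhibitor, 3 rose and 3 fell in rat, beside 18.3% and 16.8% of all genes tested. In mouse, 1 rose and 5 fell (1 and 6 with library size alone), beside 37.4% and 37.7%. Adamts5, an aggrecanase, rose in rat from a mean FPKM of 11.3 to 32.1 (log2 fold change 1.49, edgeR adjusted P = 1.14e-06) and fell in mouse from 29.4 to 19.7 (−0.30, edgeR adjusted P = 2.96e-12). The difference was −1.79 (edgeR adjusted P = 6.75e-11). Adamts1 likewise rose in rat (0.80) and fell in mouse (−0.24), with a difference of −1.04 (edgeR adjusted P = 1.01e-08). Adamts9 fell in both, with log2 fold changes of −1.15 and −0.61. Adamts8, named after its values were seen, was the protease of this list that rose in both species, at low levels. Its mean FPKM was 0.189 in RC libraries and 0.864 in RM libraries (log2 fold change 2.18, edgeR adjusted P = 0.000205), and 0.0246 in MC libraries and 0.239 in MM libraries (6 and 63 counts, log2 fold change 3.45, edgeR adjusted P = 4.28e-08). Its change was not shown to differ between the species (1.29, 95% interval −0.13 to 2.70, edgeR adjusted P = 0.103). Timp3, the inhibitor of these proteases that is held in the matrix, fell in both, from a mean FPKM of 139 to 59.0 in rat (log2 fold change −1.25) and from 377 to 59.0 in mouse (−2.40).

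The other matrix genes mostly fell with Acan. Of the partners listed, 11 of 13 fell and 2 rose in rat (10 and 2 with library size alone), beside 16.8% and 18.3% of all genes tested. In mouse, 10 of 14 fell and 4 rose (11 and 3 with library size alone), beside 37.7% and 37.4%. Col2a1, Col9a1 and Col11a2, whose products form the cartilage collagen fibril that matrilins and COMP bind, had log2 fold changes of −1.60, −1.31 and −1.34 in rat and −3.57, −4.21 and −3.27 in mouse. The change in mouse lay below that in rat for each, by −1.96, −2.90 and −1.93 (the largest edgeR adjusted P was 5.08e-12). Dcn, the gene of decorin, a small proteoglycan of collagen fibrils, rose in both, from a mean FPKM of 5.91 to 28.9 in rat (log2 fold change 2.27) and from 22.9 to 601 in mouse (log2 fold change 4.99). The other genes that rose were chosen for naming after their values were seen. They were Fn1 (fibronectin) in rat (log2 fold change 0.31) and in mouse Epyc (epiphycan, 0.69), Hspg2 (perlecan, 0.47) and Fn1 (0.12), which turns to −0.16 with library size alone. The symbol Hspg2 was not found in the rat table.

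Of the 3 SOX genes, whose products drive the transcription of Acan and other cartilage genes, Sox9 fell in both species, with log2 fold changes of −0.65 in rat (edgeR adjusted P = 7.08e-05) and −1.06 in mouse (edgeR adjusted P = 1.78e-32). Sox6 also fell in both, by −0.30 and −1.36. Sox5 rose in mouse (0.86) and did not pass the test in rat (−0.18, edgeR adjusted P = 0.131). The change in mouse lay below that in rat by −0.41 for Sox9 (edgeR adjusted P = 0.000576) and by −1.06 for Sox6 (edgeR adjusted P = 1.92e-08), and above it by 1.04 for Sox5 (edgeR adjusted P = 5.56e-08).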

How the data were processed

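Bulk RNA-seq of 12 libraries (RC, RM, MC and MM groups, 3 each, grouped by their treatment labels) was analysed. The authors deposited a table per species with raw counts per gene and FPKM made from them: each FPKM equalled the count over gene length and library total within 0.1% for 100% of values. The submitters' processing notes name HISAT2, HTSeq 0.11.2, GRCm38 and Rnor_6.0. Whether strand was used is not stated.

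Counts were fitted per species in R 4.3.3 with edgeR 4.0.16 (filterByExpr, TMM, glmQLFit, glmQLFTest), with Benjamini-Hochberg adjustment over all 13303 rat or 14774 mouse genes tested. The species difference came from 1 fit of 14351 genes shared by a unique symbol (10912 tested), with TMM set within each species. Ratios of FPKM were compared by exact permutation tests. Alternatives were DESeq2 1.42.0, limma 3.58.1 on log2(FPKM + 1) and log2(FPKM + 0.1), other scalings, no filter, a replicate block, leaving out each library and, added after seeing the data, the criteria for DEGs as the call rule of the 10 genes (the scale of their fold change threshold is not stated and was read as log2) and other scalings of the marker lists. The edgeR, DESeq2 and limma tests were checked on simulated data, in which few genes changed, up or down with equal probability. The simulation had no shift in library composition like that of the mouse libraries, so it does not bear on the choice of scaling.

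The 10 genes, the partner and marker lists and the rules were chosen with earlier results of these data known. Named were all 10 genes, every lectican and link protein, up to 4 genes of each other partner list (smallest adjusted P in rat among genes called in both species) and the 3 genes nearest to Acan and to Prg4. Mouse coordinates are those of GENCODE M21 on GRCm38. Rat promoter windows are RefSeq GRCr8, used for sequence only. Replicate numbers recur in each group, but same-numbered libraries did not deviate together (correlations −0.098 to 0.085 in rat and 0.001 to 0.015 in mouse), so samples were treated as unpaired. No 2 libraries of a group agreed within counting noise (chi-square per gene of 1.90 to 2.48 in mouse and 6.07 to 27.8 in rat). This check shows only that no library was a copy of another. It cannot tell whether the samples of a group were separate cultures.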

Additional observations from a re-analysis of the deposited data

Results flagged for a closer look

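For each of the 10 genes, the change with IL-1β differed between rat and mouse by the test of the difference itself (edgeR, 4 groups of 3 libraries). On the log2 scale, the mouse change minus the rat change was −5.39 for Matn3, −2.51 for Matn4, −2.43 for Prg4, −2.14 for Acan, −1.22 for Comp, −1.12 for Matn1 and −0.51 for Hapln1, and these 7 held under each scaling and tool tried. It was 0.41 for Vcan and 0.42 for Matn2. Both lost the call with library size alone and with limma on FPKM, which are also scaled by library total. It was −3.99 for Cilp, a fitted value that rests on 0 counts in the MM group. Differences of this kind were common, with 32.3% of the 10912 shared genes below and 31.4% above. The species also differ in the labelled strain of the mice, in depth and in the spread between replicates, and the part of these was not tested.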

How the results depend on the processing

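Of 680 values recomputed under another setting, 661 were labelled the same. For a single gene that label means the same direction and call. For a count of genes it means only that the count stayed within a fixed fold of the main count. The label therefore includes large shifts, such as the 8077 lower and 3697 higher mouse genes with library size alone. In mouse, 5521 genes rose under TMM, against 3639 and 3635 by limma on log2(FPKM + 1) and log2(FPKM + 0.1), and library size alone gave 8077 lower and 3697 higher genes in place of 5564 and 5521. The number of the 10 genes called lower and higher did not change in either species under any scaling, tool or left-out library. Only the criteria for DEGs, applied to the fit with TMM, moved it, to 6 lower in mouse. For the difference between the species, library size alone and limma on log2(FPKM + 1) left 0 and 1 of the 10 genes above (2 with TMM), with 5398 and 5326 shared genes below in place of 3530 and 2189 and 2214 above in place of 3429. Under these settings the difference was 0.11 and 0.12 for Vcan (adjusted P = 0.357 by edgeR and 0.325 by limma). For Matn2 it was 0.12 and 0.20 (adjusted P = 0.371 by edgeR and 0.120 by limma), and limma turned that of Cilp to 2.13. TMM brings the middle of the log2 ratios near 0 by construction, whereas library size alone does not centre them. In mouse, the TMM factors raise each ratio of MM to MC by 0.279 on the log2 scale. Which scaling lies nearer to the true change was not tested. The limma fits used FPKM, which are also scaled by library total and not by TMM, so limma is not a scaling separate from library size alone. The part of its added constant and of its test was not tested. In rat, the log2 change of the Matn1 share turned from −0.045 to 0.0151 without RM replicate 3 (range −0.11 to 0.02 over left-out libraries) and that of the Matn3 share from −0.149 to 0.0228 without RM replicate 1 (range −0.27 to 0.02). By the criteria for DEGs, 10 partner genes fell and 4 rose in rat (18 and 9 by adjusted P), and 12 fell and 6 rose in mouse (20 and 12). By these criteria 3.9% of all genes tested fell and 4.64% rose in rat, and 13% fell and 12.6% rose in mouse. The replicate block changed no call of the 10 genes (8 lower and 2 higher in each species) and gave 2098 lower and 2436 higher genes in rat and 5544 and 5503 in mouse; the samples share only a number. In rat, the count of all genes called ran from 1568 to 3008 lower and from 1735 to 3243 higher when 1 library was left out. Depth limits Cilp and Matn3 in mouse, which rest on 0 and 28 counts in the MM group.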
